A study of Mus musculus with 18 samples.

Results

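The effect of losing Nrf1 in mouse liver was compared with the effect of lowering Keap1, and the quantity tested for each gene was the difference between these effects. It uses 12 of the 18 samples of the study, in 4 groups of 3, taken by their labels, and the other 6 samples (Nrf2 KO and its control) enter the fit of all 6 groups, where they help set the spread behind every call, and give a further readout. Nrf1 CKO livers had the genotype Nrf1(dN/-) with the Alb-Cre transgene, and Nrf1 Control livers were Nrf1(dN/+). Keap1 KD livers were Keap1(Kd/-), and Keap1 Control livers were Keap1(Kd/+), so these controls also carried a Kd allele. Nrf2 KO livers were Nrf2(-/-) and their controls Nrf2(+/+). Every liver came from a female of 6 weeks, and the strain of the Nrf1 and Keap1 lines is given as mixed. Cre driven by the albumin promoter acts in hepatocytes, whereas no Cre is named for the Keap1 line, whose alleles are then present in every cell of the liver. The labels name Alb-Cre for the CKO samples and not for their controls. The labels do not say whether replicates came from separate animals, so the p-values speak to the scatter of these arrays, and part of that scatter may be technical.

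NRF1 (gene symbol Nfe2l1) and NRF2 (Nfe2l2) are transcription factors of the cap'n'collar family. Both pair with small MAF proteins and bind the antioxidant response element. KEAP1 is the adaptor that brings NRF2 to a ubiquitin ligase, so less KEAP1 leaves more NRF2, which turns on genes for detoxification and glutathione use. NRF1 sits in the membrane of the endoplasmic reticulum, is released from it by processing, and is known for driving proteasome genes. With its own controls in each line, the design can ask how far the liver without Nrf1 looks like the liver in which NRF2 is released.

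The core of the antioxidant response element, searched as TGACNNNGC on both strands in the 250 bases before each listed start of a gene, was present in the promoters of genes that followed either line. The stretches below are from RefSeq promoters of GRCm38.p6, given 5′ to 3′ in the direction of the gene, with the match in capitals. They are shown because the genes they precede stand for different outcomes. Txnrd1, Ugdh and Psmb5 rose with lowered Keap1 and were called lower in the difference, Ddit4l rose in both lines, and Vcp fell with Nrf1 loss and was also called lower in the difference.
Txnrd1, chr10:82859094-82859142, plus strand: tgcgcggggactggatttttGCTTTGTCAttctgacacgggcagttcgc
Ugdh, chr5:65435946-65435994, minus strand: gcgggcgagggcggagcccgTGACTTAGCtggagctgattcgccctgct
Ddit4l, chr3:137623606-137623654, plus strand: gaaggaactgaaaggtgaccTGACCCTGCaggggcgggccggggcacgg
Psmb5, chr14:54618014-54618062, minus strand: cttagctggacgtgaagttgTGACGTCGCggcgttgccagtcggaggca
Vcp, chr4:43000593-43000641, minus strand: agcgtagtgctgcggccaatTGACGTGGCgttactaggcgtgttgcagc
The match in Txnrd1 lies on the other strand, so it reads as the reverse complement.

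A gene was counted if a match lay before any of its listed starts, so genes with more starts had more chances of a match. The motif was found in 3112 of the 27025 genes with a promoter in the table (11.5%). Among the 10299 genes tested that had such a promoter it was found in 1429 (13.9%). It was found in 20 of 83 genes higher in Keap1 KD and not called in Nrf1 CKO (24.1%), and in 5 of 25 genes higher in both. Among genes higher in Nrf1 CKO and not called in Keap1 KD it was found in 125 of 860 (14.5%). A match is a description of the letters and shows no binding.

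Expression was measured on 1 single-colour array per sample, and values are log2 signals scaled to the 75th percentile of each array. Across the 12 arrays, 49.95% to 65.04% of spots were well above background, and replicates of a group correlated at 0.973 to 0.991 across genes. With 3 arrays a group the median standard error was 0.244 for each effect and 0.345 for the difference (log2). The 6 Nrf1 arrays shared 1 scan date and lay on 2 slides, with Nrf1 Control 1 and 2 on the first and Nrf1 Control 3 on the second with the 3 CKO arrays. The Keap1 arrays lay on 4 slides scanned on 3 dates, and Keap1 Control 3 and KD 3 shared a slide. Line and scan date cannot be told apart, but each effect is taken within its line. Inside the Keap1 line, however, date and genotype were partly confounded. Control 1 was scanned on a date without KD arrays, and KD 1 and 2 on a date without Keap1 controls. Only the date of Control 2, Control 3 and KD 3 held both. Scan date as a block gave 255 calls for lowered Keap1 and 329 in the difference. Slides and groups overlap little, and fitting slide as a block left 11 genes called in the difference. Of the genes named here, it kept the call in the difference for Nfe2l1, H2-Q1 and Mmp12. It kept the Nrf1 effect of these genes and of Wnt9b, Trem2, Lyve1 and Atf3, and the Keap1 effect of Nqo1, Cbr3, Aox1, Gstm4 and Wnt9b. No other gene named here kept a call.

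The targeted genes followed the labels. Nfe2l1 read 3.93, 3.65 and 3.59 in Nrf1 Control and -6.33, -6.67 and -6.33 in Nrf1 CKO, where no array was well above background, so it was at least 469-fold lower, and its difference between lines stayed called with slide as a block. In the Keap1 line Nfe2l1 read 4.56, 4.10 and 4.36 in the controls and 4.72, 4.24 and 4.58 in KD. Keap1 read 4.47, 4.81 and 3.28 in Keap1 Control and 1.75, 1.79 and 1.87 in KD, a fall of 2.39 ± 0.31 (SE; limma adjusted p = 0.0012). In the Nrf1 line Keap1 read 3.79, 3.63 and 3.43 in controls and 2.98, 2.92 and 2.81 in CKO. Those groups did not overlap, but the effect of -0.71 did not pass (limma adjusted p = 0.12). Keap1 therefore read lower in all mutant samples of both lines than in their own controls. Nfe2l2, the gene of NRF2, read 3.58, 3.52 and 3.70 in Nrf1 Control and 4.06, 4.32 and 4.45 in CKO, which did not overlap. In the Keap1 line it read 3.36, 3.62 and 3.35 in controls and 2.97, 3.56 and 3.24 in KD. Neither effect was called (0.68 in Nrf1 CKO and -0.19 in Keap1 KD), and the difference of 0.87 had a 95% interval of -0.57 to 2.30. The fit shares its spread with the Nrf2 KO arrays, 1 of 3 of which read Nfe2l2 well above background. With the 12 arrays alone the standard error of its Nrf1 effect was 0.19 in place of 0.48, the rise was called (limma adjusted p = 0.042), and the difference was not (limma adjusted p = 0.097; interval 0.29 to 1.44).

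Of 17721 genes tested, 1226 (6.92%) were called in the difference of effects at a limma adjusted p under 0.05, with 630 higher (3.56%) and 596 lower (3.36%) in Nrf1 CKO relative to Keap1 KD. Nrf1 loss alone raised 1416 genes (7.99%) and lowered 1932 (10.9%). Lowered Keap1 raised 168 (0.948%) and lowered 811 (4.58%), which is 979 in all (5.52%), beside 3348 (18.9%) for Nrf1 loss. The Keap1 counts were 94 raised and 256 lowered without Keap1 Control 3. They were 161 and 373 without KD 1, and 125 and 464 without KD 3. The split of the calls moved with scaling: 51.4% of the calls in the difference were higher in the main scaling, 59.0% after quantile normalization and 14.96% after scaling to the array median, which moved the median difference of all genes to -0.44. Of Nrf1 calls 42.3%, 55.1% and 35.3% were higher under these scalings, and of Keap1 calls 17.2%, 27.4% and 48.8%. The count for the difference was 263 without Nrf1 Control 1, 778 without Nrf1 Control 2, 359 without CKO 2, 271 without CKO 3, 597 without Keap1 Control 2 and 594 without KD 1. It was 2312 without CKO 1 and 1990 without Keap1 Control 1. With the 6 Nrf2 arrays left out of the fit it was 268, and the Nrf1 count was 1836.

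The same genes were seldom called in both lines. Of all genes, 35 were higher in both (0.198%), 44 lower in both (0.248%), 15 higher in Nrf1 CKO and lower in Keap1 KD (0.0846%), and 14 lower in Nrf1 CKO and higher in Keap1 KD (0.079%). Of the 168 genes raised by lowered Keap1, 35 (20.8%) also rose and 14 (8.33%) fell with Nrf1 loss, beside 7.99% and 10.9% of all genes. Their median Nrf1 effect was 0.11, with quartiles of -0.28 and 0.60, and 101 of 168 (60.1%) were above 0. Of the 811 genes lowered with Keap1 (256 without Keap1 Control 3), 44 (5.43%) fell and 15 (1.85%) rose with Nrf1 loss. The median Nrf1 effect of the 811 was -0.33. Read the other way, 35 of the 1416 genes raised by Nrf1 loss (2.47%) rose with lowered Keap1 and 15 (1.06%) fell, with a median Keap1 effect of 0.04. Across all 17721 genes the effects correlated with Pearson r = 0.098 and Spearman rho = 0.073. Genes are not independent replicates, and this r ranged from -0.020 to 0.178 over the alternatives. Without Nrf1 CKO 2 or CKO 3 the genes called the same way in both lines fell from 79 to 17.

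**Figure D1:**
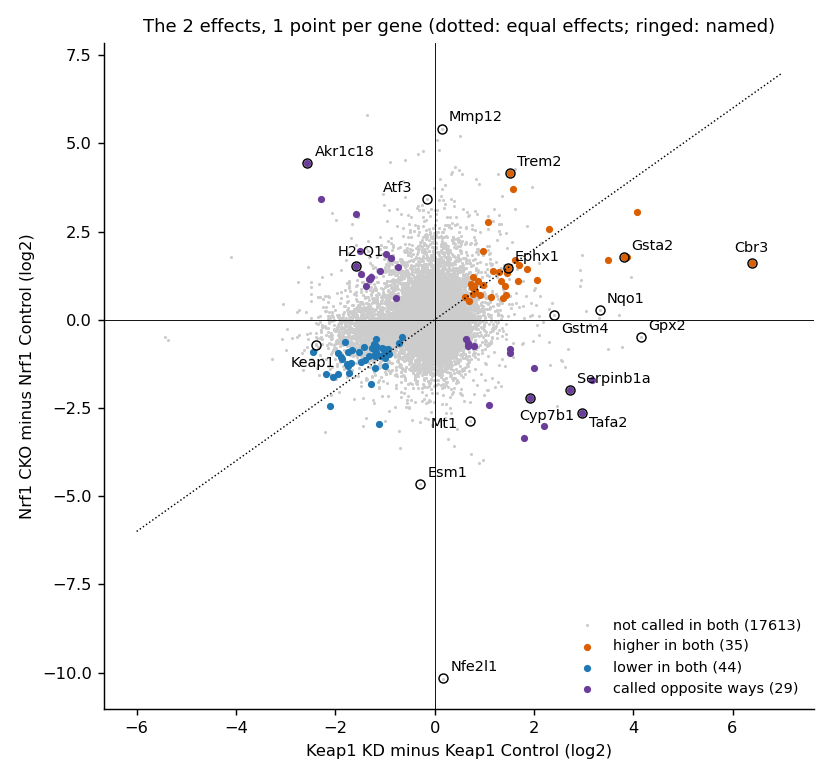
Each point is 1 of 17721 genes, with the Keap1 KD effect on the x axis and the Nrf1 CKO effect on the y axis (both log2), coloured where both effects were called. The 35 genes higher in both and the 44 lower in both lie at the upper right and lower left around the dotted line of equal effects, Nqo1 and Gpx2 lie along the x axis, and Akr1c18 and Cyp7b1 lie in the upper left and lower right.

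Within the detoxification and redox lists, lowered Keap1 raised members of every class and lowered none by limma (at an unadjusted p under 0.05 it lowered 1 each of the glutathione, transferase and conjugation genes). Nrf1 loss raised some members and lowered others. Lists are described by counts and medians beside those of all genes, whose median effects were -0.09 for Nrf1 loss and 0.00 for lowered Keap1. Each list count below stands beside the share of all genes called. By limma these were 7.99% higher and 10.9% lower with Nrf1 loss, and 0.948% and 4.58% with lowered Keap1. In the difference they were 3.56% higher and 3.36% lower. These shares belong to the main fit, and counts over all 17721 genes moved with the alternative. In the difference 596 were lower in the main fit and 306 after quantile normalization. After array median scaling 2194 were lower, and 93 in the fit of 12 arrays. The counts higher were 630, 440, 386 and 175. With Nrf1 loss 1932, 1254, 1740 and 974 fell in this order, and 1416, 1539, 948 and 862 rose. At an unadjusted p under 0.05, 14.1% of all genes were higher and 20.5% lower with Nrf1 loss, 5.37% higher and 11.4% lower with lowered Keap1, and 13.1% higher and 14.7% lower in the difference. The lists were written with earlier results of these data known. With slide as a block the members called in the difference were Nfe2l1 and Mmp12, with none in the other lists. Gene products and their levels in RNA from whole liver have a limit that holds throughout: fewer cells of a type and less RNA per cell cannot be told apart.

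The quinone and carbonyl reductases hold Nqo1 and Cbr3, whose gap between lines was wide. Of 19 measured, 5 rose with lowered Keap1 and 3 rose and 3 fell with Nrf1 loss. In the difference 5 were lower and 1 higher. After quantile normalization 5 rose and none fell with Nrf1 loss, and 2 were lower in the difference. Nqo1, the quinone reductase that is the usual marker of NRF2 activity, read 0.80, 0.05 and 0.64 in Keap1 Control and 3.61, 3.99 and 3.87 in Keap1 KD. In the Nrf1 line it read 1.39, 1.35 and 1.07 in controls and 1.17, 1.45 and 2.01 in CKO. The Keap1 groups lay far apart and the Nrf1 groups overlapped, so that Nqo1 rose by 3.33 ± 0.25 with lowered Keap1 and differed between lines by -3.05 ± 0.35 (SE; limma adjusted p = 0.00041). Within the shared slides the effects were 0.47 for Nrf1 (Control 3 against the 3 CKO arrays) and 3.23 for Keap1 (Control 3 against KD 3).

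Cbr3, a carbonyl reductase, rose in both lines by very different amounts. It read 0.18, 0.57 and 0.13 in Nrf1 Control and 0.64, 2.02 and 3.05 in CKO, against 0.46, 1.05 and 1.24 in Keap1 Control and 6.88, 7.16 and 7.89 in KD. No group overlapped its own control, and CKO 1 was the lowest of the CKO samples. The effects were 1.61 and 6.39, and the difference was -4.78 ± 0.65 (limma adjusted p = 0.0016). The aldehyde oxidase Aox1 rose by 1.94 with lowered Keap1 and had an Nrf1 effect of 0.47 (limma adjusted p = 0.14), a difference of -1.47, which was no longer called after quantile normalization. Ptgr1, a prostaglandin reductase, was the member that differed the other way. It rose by 1.42 with Nrf1 loss, had a Keap1 effect of -0.10, and differed by 1.53 ± 0.29 (limma adjusted p = 0.013).

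Glutathione supply and use differed by member. Of 14 measured genes, 3 rose with lowered Keap1 and 4 fell with Nrf1 loss, and 5 were lower in the difference. The last count was 2 without Nrf1 Control 1 or CKO 3, and the count that fell was 1 without CKO 2 or CKO 3. Gpx2, a glutathione peroxidase, read -3.32, -1.42 and -1.49 in Keap1 Control and 2.40, 1.99 and 1.87 in KD, but -3.02, -2.31 and -2.19 in Nrf1 Control and -2.85, -3.20 and -2.91 in CKO. It rose with lowered Keap1 by 4.16, its Nrf1 groups overlapped, and the difference was -4.64 ± 0.80 (limma adjusted p = 0.0084). Gsr, which regenerates glutathione, rose by 1.0 with lowered Keap1 and had an Nrf1 effect of -0.15 (difference -1.16, limma adjusted p = 0.011). Gclc, the catalytic subunit of the rate-limiting step of glutathione synthesis, rose by 1.01 with lowered Keap1. Its Nrf1 effect was 0.08, and the difference of -0.93 (95% interval -1.56 to -0.30) did not pass (limma adjusted p = 0.065). The call of its rise rests on KD 3, without which the effect was 0.88 and was not called. Gclm, the modifier subunit, was called in neither line (-0.15 and 0.26; interval of the difference -1.03 to 0.23). Of the members lowered by Nrf1 loss, Gpx1 (-0.68), Glrx (-0.80) and Oplah (-0.91) had Keap1 effects of 0.28, 0.54 and 0.35, none of them called. The calls of Gpx1 and Glrx in the difference were lost when any 1 of 7 arrays was left out, Nrf1 Control 1, CKO 2 and CKO 3 among them.

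The glutathione S-transferases, which join glutathione to electrophiles, held both shared and separate members. Of 21 measured, 9 rose and none fell with lowered Keap1. Nrf1 loss raised 3, which were all among those 9, and lowered 4. In the difference 7 were lower and 0 higher by limma (16 and 0 at an unadjusted p under 0.05), with 4 lower after quantile normalization, 15 after array median scaling, 3 without any 1 of 7 arrays and 13 without Keap1 Control 1. Without CKO 2 or CKO 3 Nrf1 loss raised none. The list's median effects were -0.29 for Nrf1 loss and 0.81 for lowered Keap1, and the first was 0.01 after quantile normalization. Gsta1 read 3.48, 4.14 and 3.38 in Nrf1 Control and 4.10, 6.03 and 5.98 in CKO, where CKO 1 lay within the range of the controls. In the Keap1 line it read 4.20, 2.96 and 4.13 in controls and 7.18, 7.69 and 6.87 in KD, which did not overlap. It rose by 1.70 and by 3.48, and the difference of -1.78 (95% interval -3.33 to -0.24) did not pass (limma adjusted p = 0.13). Gsta2 was alike, with 1.78 and 3.81 and a difference of -2.03 (interval -3.71 to -0.34). Probes of such close relatives may cross-hybridize, so these may not be separate measurements, and the same limit holds for the other Gst, Ugt, Ces, Cyp, Akr and H2-Q genes named. Their Nrf1 calls were lost without CKO 2, CKO 3, Nrf1 Control 1 or Nrf1 Control 3, and that of Gsta2 also without Nrf1 Control 2, and the lowest such effect was 1.37 for Gsta1 and 1.47 for Gsta2.

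Gstm2, of the mu class, rose to the same extent in both lines. It read 5.40, 4.97 and 5.09 in Nrf1 Control and 5.93, 6.82 and 6.80 in CKO, and 5.64, 4.52 and 4.32 in Keap1 Control and 5.88, 6.28 and 6.20 in KD. Neither mutant group overlapped its control. The effects were 1.36 and 1.29 and the difference was 0.07 with a 95% interval of -0.88 to 1.01. Its Nrf1 call was lost without CKO 2 or CKO 3, and its Keap1 call without any 1 of 4 Keap1 arrays, where the lowest effects were 1.21 and 1.04. Other mu-class members rose in the Keap1 line alone by call. Gstm1 rose there by 1.27, a call lost without any 1 of 4 Keap1 arrays, where the lowest effect was 0.86. Its other probe gave 0.56 for Nrf1 loss and 3.04 for lowered Keap1. Gstm4 read 2.14, 2.01 and 1.83 in Nrf1 Control, 2.03, 1.97 and 2.37 in CKO, 2.24, 1.39 and 2.44 in Keap1 Control and 3.86, 4.91 and 4.50 in KD, a difference of -2.27 ± 0.39 (limma adjusted p = 0.0084). Gsta4, which acts on lipid aldehydes, differed by -1.96 (Nrf1 effect -0.53, not called; Keap1 effect 1.43; limma adjusted p = 0.015). Gsto1, of the omega class, fell by 1.18 with Nrf1 loss and had a Keap1 effect of 0.47 that did not pass. Gstp1, of the pi class, rose by 1.70 in Keap1 KD, and its difference of -1.33 was not called without any 1 of 7 arrays, the same as those that undid Gpx1. The differences of Nqo1, Cbr3, Gpx2, Gstm4, Gsta4 and Gsto1 were called in every alternative run except slide as a block.

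**Figure D2:**
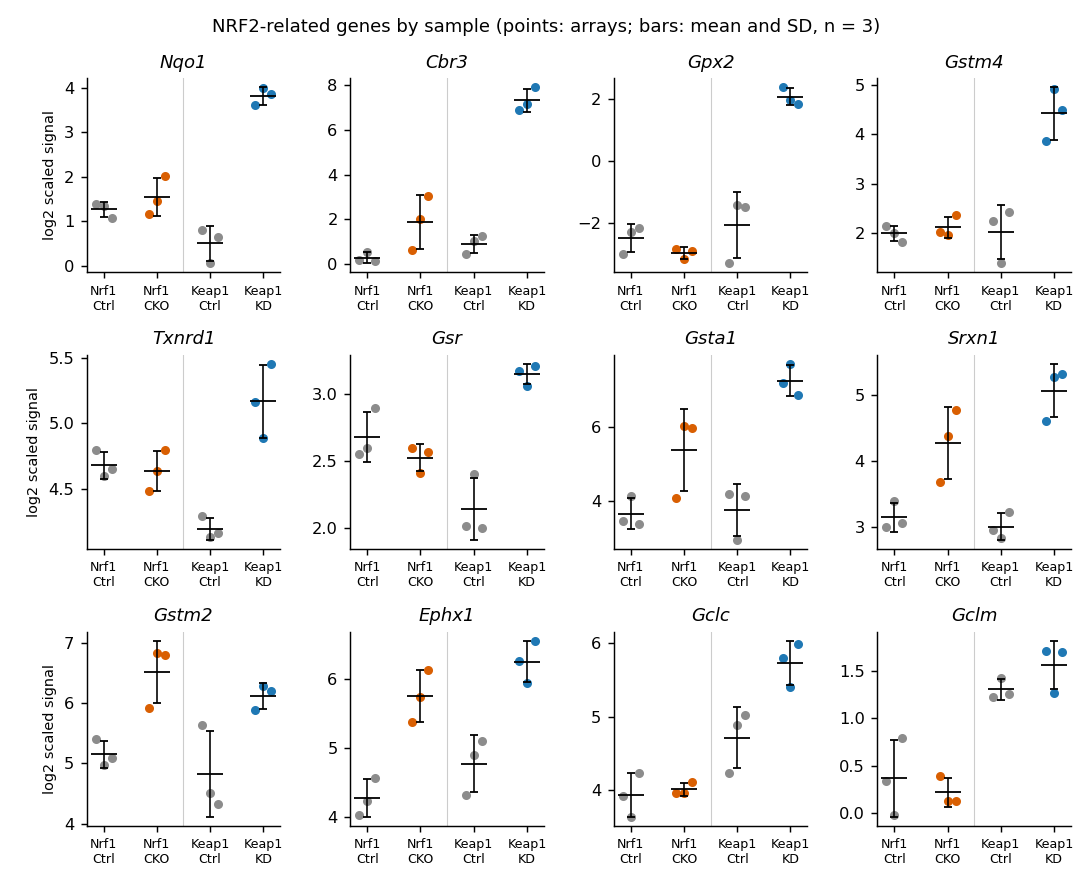
Each panel shows 1 NRF2-related gene, with the log2 scaled signal of the 3 arrays of each of 4 groups as points and the mean and SD as bars. The KD points of Nqo1, Cbr3, Gpx2 and Gstm4 stand far above every other point of their panels, whereas Gstm2, Ephx1 and Srxn1 are higher in both mutants than in their own controls.

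Genes of peroxide removal also split by member. Of 17 measured genes for thioredoxin, peroxiredoxin and superoxide handling, 3 rose with lowered Keap1, and 1 rose and 5 fell with Nrf1 loss (Cat, Prdx4, Prdx6, Sod1 and Sod2, by 0.55 to 0.64). None was called as fallen after quantile normalization, in the fit of 12 arrays, or without Nrf1 Control 1, CKO 2 or CKO 3. Srxn1, the sulfiredoxin that repairs oxidized peroxiredoxins, read 3.0, 3.40 and 3.06 in Nrf1 Control and 3.69, 4.38 and 4.77 in CKO, and 2.95, 2.84 and 3.24 in Keap1 Control and 4.61, 5.28 and 5.33 in KD. It rose by 1.13 and by 2.06, and the difference of -0.93 (interval -1.69 to -0.18) did not pass. Its other probes gave 1.73 and 1.87 for Nrf1 loss beside 2.17 and 2.14 for lowered Keap1. Without CKO 3 its Nrf1 effect was 0.88 and was not called. Txnrd1, the thioredoxin reductase, read 4.80, 4.60 and 4.65 in Nrf1 Control and 4.48, 4.64 and 4.79 in CKO, and 4.29, 4.13 and 4.17 in Keap1 Control and 5.16, 4.89 and 5.45 in KD. It rose by 0.97 in KD and differed by -1.01 ± 0.22 (limma adjusted p = 0.021), a call that was lost without Nrf1 Control 1 or CKO 2. Thioredoxin itself, Txn1, rose by 0.70 in KD and had an Nrf1 effect of -0.15; its call in the difference was lost without any 1 of 7 arrays.

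Among the enzymes that make NADPH, 2 of 12 rose with lowered Keap1, and 3 rose and 3 fell with Nrf1 loss. None was called as fallen after quantile normalization or without Nrf1 Control 1, CKO 2 or CKO 3, and none as risen without CKO 3. No member was called in the difference by limma, and at an unadjusted p under 0.05 there were 5 lower and 1 higher. Pgd, of the pentose phosphate pathway, rose by 0.66 and 1.14 (interval of the difference -1.02 to 0.06), and its Nrf1 call was lost without Nrf1 Control 1, Nrf1 Control 2, CKO 2 or CKO 3, where the lowest effect was 0.54. G6pdx was called in neither line (0.23 for Nrf1 loss and 0.63 for lowered Keap1) nor in the difference (-0.41). Tkt rose by 0.96 with lowered Keap1 and had an Nrf1 effect of -0.04. Mthfd2, the mitochondrial folate enzyme, rose by at least 3.04-fold with Nrf1 loss, and 1 of 3 arrays in each Keap1 group read it well above background.

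Epoxide hydrolase Ephx1 matched in size. It read 4.03, 4.23 and 4.57 in Nrf1 Control and 5.37, 5.74 and 6.13 in CKO, and 4.31, 4.90 and 5.11 in Keap1 Control and 6.25, 5.94 and 6.54 in KD. Both mutant groups lay above their controls. Both effects were 1.47 and the difference was 0.00 (interval -0.94 to 0.94); another probe gave 1.56 and 1.60. Without KD 3 its Keap1 effect of 1.32 was not called. Of the 15 measured hydrolases, 3 rose with lowered Keap1 and 2 rose and 5 fell with Nrf1 loss (4 rose and 2 fell after quantile normalization, and 2 fell without Nrf1 Control 1 or CKO 3). Carboxylesterase Ces1e fell by 1.71 with Nrf1 loss and had a Keap1 effect of 0.18, and Ces2e rose by 1.48 with a Keap1 effect of 0.05. Probes of Ces2c disagreed (-0.53 and 0.61 by one, 1.55 and 2.88 by the other), so no direction is given for it.

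The conjugation and export genes held members that moved apart. Of 22 conjugation genes, 3 rose in KD and 8 fell in CKO, and 3 were lower in the difference. After quantile normalization 1 rose and 2 fell in CKO and 1 was lower in the difference, and after array median scaling 13 were. None fell in CKO without Nrf1 Control 1, CKO 2 or CKO 3, and 6 were lower in the difference without CKO 1. Ugdh makes the UDP-glucuronate used for conjugation. It rose by 1.92 with lowered Keap1, its Nrf1 effect was 0.10, and it differed by -1.81 ± 0.35 (limma adjusted p = 0.013). The UDP-glucuronosyltransferase Ugt2b1 fell by 0.94 with Nrf1 loss and rose by 1.52 with lowered Keap1. Abcc3, which exports conjugates to the blood, read 5.34, 5.38 and 5.12 in Nrf1 Control and 4.65, 4.23 and 4.51 in CKO, and 4.73, 4.64 and 4.87 in Keap1 Control and 6.41, 5.89 and 6.51 in KD. The 4 groups held no overlap within a line, and the difference was -2.34 ± 0.35 (limma adjusted p = 0.0036). Of 12 export pumps, 3 rose in KD (Abcc3, Abcc4 and Abcc5, named after their values were seen). In CKO none rose and 2 fell, beside 7.99% and 10.9% of all genes, and 2 were lower in the difference. The pumps that rose in CKO were 2 when CKO 1 was left out, and none fell without CKO 3. Among 18 heme and iron genes, the heme transporter Slc48a1 rose by 1.21 and ferritin light chain Ftl1 by 0.91 in KD, with Nrf1 effects of -0.24 and 0.10. Hmox1, heme oxygenase, rose by 0.93 with Nrf1 loss and had a Keap1 effect of 0.10. Its difference of 0.83 did not pass (limma adjusted p = 0.17), and its Nrf1 call was lost without CKO 2, CKO 3 or Nrf1 Control 1.

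Of the upstream regulators, none but Keap1 was called with lowered Keap1. Of 14 measured, 4 fell with Nrf1 loss, the deleted gene Nfe2l1 among them. Bach1, which represses antioxidant response elements, read 1.02, 0.98 and 0.62 in Nrf1 Control and -0.08, -0.60 and -0.80 in CKO, a fall of 1.37, and had a Keap1 effect of 0.20. Mafg, a partner of both factors, fell by 0.75 and had a Keap1 effect of 0.20. The differences of both, -1.57 and -0.95, were called, but not without any 1 of 5 arrays for Bach1 and 9 for Mafg, Nrf1 Control 1, CKO 2 and CKO 3 included. Cul3, the scaffold of the KEAP1 ligase, fell by 0.69 with Nrf1 loss and was also named after its value was seen.

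**Figure D3:**
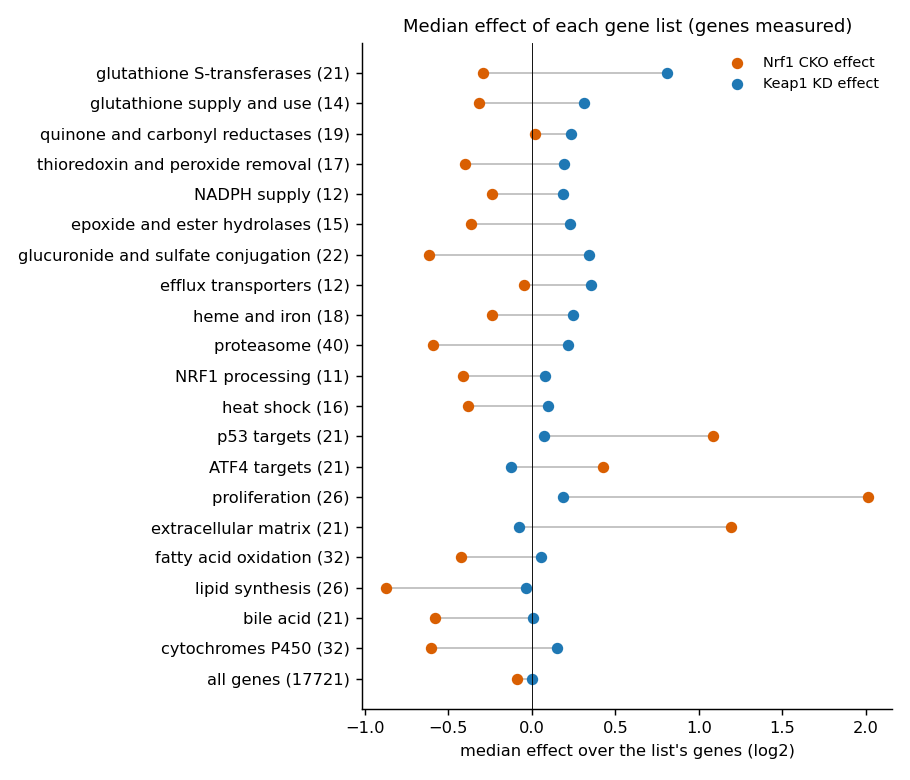
Points give the median log2 effect over the measured genes of each list for Nrf1 loss and for lowered Keap1, joined by a line, with all 17721 genes at the bottom. The glutathione S-transferase median is -0.29 for Nrf1 loss and 0.81 for lowered Keap1, and the proliferation median is 2.01 for Nrf1 loss and 0.18 for lowered Keap1.

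Genes raised in both lines fell into detoxification genes and others. Besides Gsta1, Gsta2, Gstm2, Ephx1, Srxn1, Cbr3 and Pgd, they included Wnt9b, Sp5, Gpc1, Rhbg, Ddit4l and Trem2. Wnt9b, a Wnt ligand, read -3.78, -3.71 and -3.57 in Nrf1 Control and -2.06, -1.98 and -1.89 in CKO, and -3.19, -4.06 and -3.24 in Keap1 Control and -2.18, -1.92 and -1.53 in KD. The mutants of both lines lay above their controls, by 1.71 and 1.62, and both effects stayed called with slide as a block. Sp5, a target of Wnt signalling, rose by 1.32 and 1.45, and Rhbg, an ammonium transporter, by 1.54 and 1.70. Gpc1, a cell-surface proteoglycan, rose by 1.43 and 1.86. The interval of the difference was -0.62 to 0.80 for Wnt9b and -1.04 to 0.78 for Sp5. The Keap1 call of Rhbg was lost without any 1 of 6 arrays, those of Sp5 without CKO 2, CKO 3 or KD 3, and the Nrf1 call of Gpc1 without Nrf1 Control 1 or CKO 3. Ddit4l, an inhibitor of mTORC1 signalling, rose by 3.70 with Nrf1 loss and by 1.58 with lowered Keap1, and its Keap1 call was lost without any 1 of 10 arrays. Trem2, a receptor of lipid-laden macrophages, read -1.40, -1.02 and -1.12 in Nrf1 Control and 2.18, 3.12 and 3.61 in CKO, and -1.54, -0.89 and -0.60 in Keap1 Control and 0.19, 0.62 and 0.69 in KD. It rose by 4.15 and 1.51, and this difference of 2.64 ± 0.47 was itself called (limma adjusted p = 0.0094), in every alternative run except slide as a block.

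Genes lowered in both included Slc3a1, a subunit of the cystine transporter (-1.82 and -1.28), and the cytochrome P450 Cyp2d13 (-1.31 and -1.01). Ccnl2, a cyclin tied to RNA processing, fell by 0.83 and 0.95. The Keap1 calls of Slc3a1 and Cyp2d13 were lost without any 1 of 6 and of 8 arrays. The 44 genes lowered in both had a promoter with the motif in 0 of 7 cases that had one in the table.

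The Nrf2 KO samples give a further readout. They share no array with the 4 groups and enter neither effect size, but they are part of the fit whose spread decided the calls, and without the 6 arrays of the Nrf2 line 48 genes in place of 79 were called the same way in both lines. Within the Nrf2 groups no slide and no scan date held both genotypes, so neither can be told apart from genotype there. Nrf2 arrays also shared slides with the Keap1 line. The 3 Nrf2 controls lay with Keap1 Control 1, Nrf2 KO 2 with Keap1 Control 2, and Nrf2 KO 3 with KD 1 and 2. The readout is therefore not separate in batch from the Keap1 calls that chose the genes. Among the 35 genes higher in both lines, the median Nrf2 KO effect was -0.46 and 29 were below 0. Among the 119 higher only by call in Keap1 KD it was -0.30, with 97 below 0. Among the 14 lower in Nrf1 CKO and higher in Keap1 KD it was -0.51, with 10 below 0, and among the 1366 higher by call in Nrf1 CKO alone it was -0.01, with 695 below 0. Among the 44 lower in both it was 0.16, with 10 below 0. For the 15 higher in Nrf1 CKO and lower in Keap1 KD it was 0.20, with 6 below 0. Over all genes it was 0.01, with 8686 of 17721 below 0. The Nrf2 KO effect called 10 genes lower (0.0564%) and 1 higher (0.00564%), 11 in all (0.0621%), so single genes mostly did not pass. Nqo1 fell by 1.47 and Aox1 by 2.73 in Nrf2 KO. Ephx1 and Srxn1 had Nrf2 KO effects of -1.26 and -1.12, which were not called, and Wnt9b had -0.34.

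A further set of genes moved opposite ways in the lines. Akr1c18, which breaks down progesterone, read -3.14, -3.70 and -2.90 in Nrf1 Control and -0.11, 1.21 and 2.46 in CKO. In the Keap1 line it read -1.30, -1.46 and -0.15 in controls and -3.01, -3.66 and -3.93 in KD. It rose by 4.43 and fell by 2.56, a difference of 6.996 ± 0.78 (limma adjusted p = 0.00041). H2-Q1, an MHC class I gene, read 0.36, 0.48 and -0.05 in Nrf1 Control, 1.62, 1.81 and 1.96 in CKO, 1.39, 0.29 and 1.18 in Keap1 Control and -0.48, -0.51 and -0.92 in KD, and its difference of 3.12 stayed called with slide as a block. The transcription factor Jun rose by 1.51 and fell by 0.75. Lum, a matrix proteoglycan of stellate cells, rose by 1.75 and fell by 0.87.

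The reverse pattern was held by Cyp7b1, an enzyme of the alternative bile acid pathway, which read 5.09, 4.31 and 4.71 in Nrf1 Control and 2.58, 2.96 and 1.90 in CKO, and 3.14, 1.44 and 2.54 in Keap1 Control and 4.36, 4.47 and 4.07 in KD. The Nrf1 mutants lay below and the Keap1 mutants above their controls, and the difference was -4.15 ± 0.51 (limma adjusted p = 0.00069). Serpinb1a, a protease inhibitor, fell by 1.99 and rose by 2.73. Tafa2, a secreted chemokine-like protein, fell by 2.64 and rose by 2.97, although only 2 of 3 Keap1 Control arrays were well above background. Lyve1, the hyaluronan receptor of sinusoidal endothelium, read 1.41, 1.71 and 1.57 in Nrf1 Control, -0.12, -1.21 and -1.23 in CKO, 0.29, 0.92 and 0.71 in Keap1 Control and 1.90, 1.79 and 1.51 in KD. It fell by 2.42 and rose by 1.09. Of 18 endothelial markers measured, 2 fell with Nrf1 loss and 1 rose with lowered Keap1, Lyve1 among both. The medians of the 18 were -0.07 and 0.13, and 9 of 18 differences were above 0. The differences of Akr1c18, Jun, Lum, Cyp7b1, Serpinb1a, Tafa2 and Lyve1 were called in every alternative run except slide as a block.

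**Figure D4:**
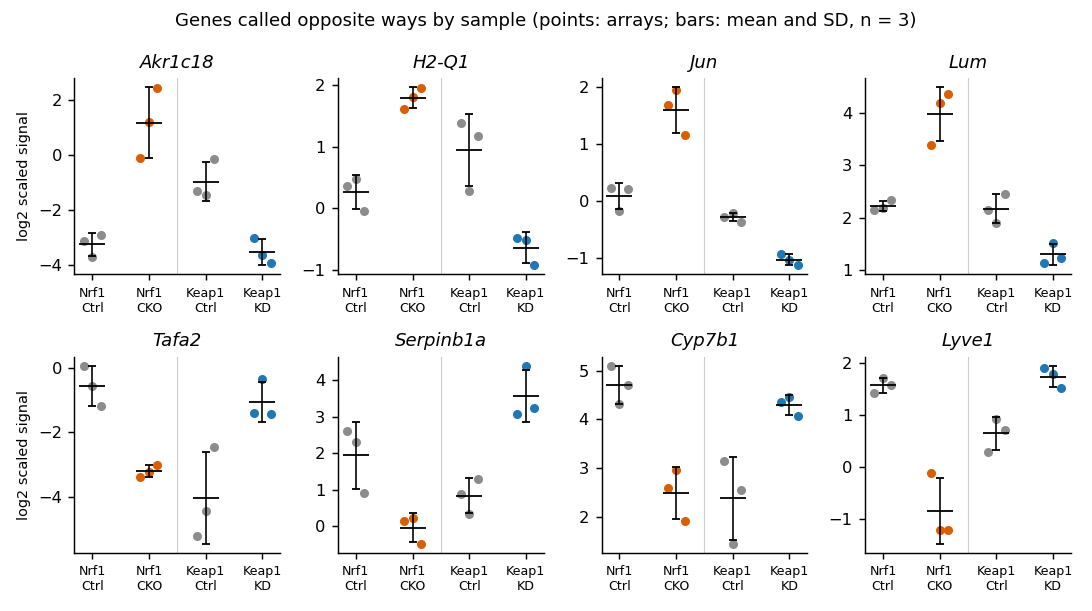
Log2 scaled signal of 8 genes called opposite ways, with 3 arrays per group as points and the mean and SD as bars. Akr1c18, H2-Q1, Jun and Lum are higher in Nrf1 CKO and lower in Keap1 KD than in their own controls, and the lower row shows the reverse.

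Proteasome genes separated the lines as a group by count, though less firmly gene by gene. Of 40 measured, 25 fell with Nrf1 loss and none rose, while 1, Psmb5, rose with lowered Keap1. The count that fell was 11 after quantile normalization, 18 in the fit of 12 arrays, 12 and 15 without Nrf1 Control 1 and 2, 9 without CKO 2 or CKO 3 and 0 with slide as a block. The median effects were -0.59 and 0.21, against -0.09 and 0.00 for all genes, and 38 of 40 differences were below 0. The shifts of the 3 CKO and the 3 KD samples from their control means did not overlap for 33 of 40, beside 47.4% of all genes. In the difference 20 were lower (beside 3.36% of all genes). After quantile normalization 2 were lower, beside 306 of all 17721 genes, and after array median scaling 30, beside 2194. The proteasome count was 0 with slide as a block, 2 with scan date as a block and 1 in the fit of 12 arrays. It was 2 without CKO 2 or CKO 3, 3 without Nrf1 Control 1 and 7 without KD 1. Without Nrf1 Control 2, Keap1 Control 2, Keap1 Control 3 and KD 2 it was 10, 11, 13 and 12. Psma5, a subunit of the core ring, read 6.26, 6.43 and 6.09 in Nrf1 Control and 5.59, 5.18 and 5.23 in CKO, and 5.93, 5.88 and 5.97 in Keap1 Control and 6.25, 6.22 and 5.97 in KD. The CKO samples lay below their controls, and KD 3 lay within the range of its controls while KD 1 and 2 lay above it. Its difference of -1.14 ± 0.20 was called (limma adjusted p = 0.0091) and was lost after quantile normalization. Psmb5, the chymotrypsin-like subunit whose promoter is shown above, read 5.10, 5.14 and 4.79, then 4.64, 4.46 and 4.53 in CKO, and 5.28, 4.89 and 4.72, then 5.77, 5.63 and 5.39 in KD. Its Nrf1 effect of -0.47 did not pass (limma adjusted p = 0.069), its Keap1 effect was 0.63 (limma adjusted p = 0.045), a call lost without any 1 of 10 arrays, and the difference of -1.10 was lost without Nrf1 Control 1, CKO 2 or CKO 3. Psmd12, of the regulatory particle, gave -0.93 and 0.26, and its other probes gave -0.40 and 0.14, and -0.79 and 0.22. Vcp, the extraction motor for NRF1, fell by 0.74 with Nrf1 loss and had a Keap1 effect of 0.41, and Ube4a, a ubiquitin ligase, fell by 0.73 beside a Keap1 effect of 0.53. The difference of Vcp was lost without Nrf1 Control 1 or CKO 3, that of Psmd12 without CKO 2 or CKO 3, and that of Ube4a without Nrf1 Control 1, CKO 2, CKO 3 or Keap1 Control 2.

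**Figure D5:**
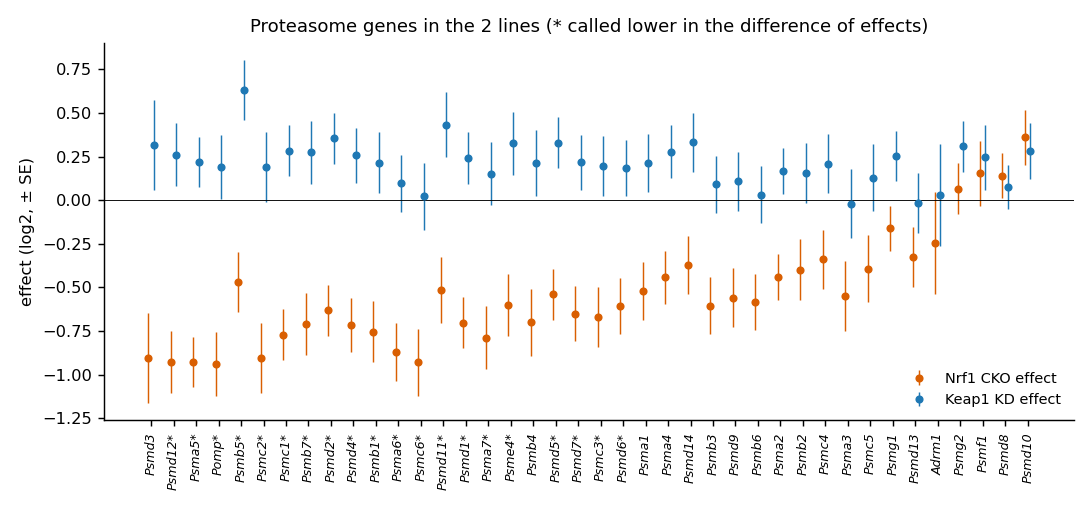
Log2 effect with its standard error for 40 proteasome genes in the Nrf1 line and in the Keap1 line, sorted by the difference, with an asterisk where the difference was called lower. The Nrf1 effects run from -0.94 to 0.36 and the Keap1 effects from -0.02 to 0.63.

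The metallothioneins also separated the lines. Mt1, which binds zinc and copper, read 8.42, 8.20 and 8.01 in Nrf1 Control and 6.16, 5.12 and 4.75 in CKO, and 7.17, 5.28 and 5.21 in Keap1 Control and 5.89, 7.47 and 6.44 in KD. It fell by 2.87 with Nrf1 loss, its Keap1 groups overlapped, and the difference was -3.58 ± 0.73 (limma adjusted p = 0.016). Mt2 fell by 2.65 and had a Keap1 effect of 0.23. The zinc importer Slc39a5 rose by 1.43 with lowered Keap1. The differences of Mt2 and Slc39a5 were lost without any 1 of 9 and of 7 arrays.

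Growth, damage and matrix genes moved with Nrf1 loss and not, by call, with lowered Keap1. A probe was kept if all 3 arrays of any 1 group read it well above background. Members bright in Nrf1 CKO alone could thus enter these lists by being high there, which favours a rise and a higher difference. Members not well above background on all 12 arrays included Cdc6, Foxm1, Eda2r, Tnfrsf10b, Aldh18a1, Mmp12 and Mmp13. Of 26 proliferation genes 22 rose with Nrf1 loss and none with lowered Keap1, with medians of 2.01 and 0.18, and 9 were higher in the difference. That count was 0 with scan date as a block, 1 in the fit of 12 arrays or without Nrf1 Control 1 or CKO 3, and 15 without Keap1 Control 1. At an unadjusted p under 0.05, lowered Keap1 raised 1 of them and lowered 0. Foxm1, a factor for mitotic genes, had effects of 2.50 and 0.17, and the helicase subunit Mcm6 had 2.1 and -0.26. Of 21 p53 targets 12 rose with Nrf1 loss and none with lowered Keap1, with medians of 1.08 and 0.07, and 8 were higher in the difference (3 with scan date as a block, 4 in the fit of 12 arrays, and 3 without Nrf1 Control 1, CKO 2 or CKO 3). At an unadjusted p under 0.05, lowered Keap1 raised 1 and lowered 3. Phlda3, an inhibitor of AKT, had effects of 2.67 and -0.75 and a difference of 3.43 (limma adjusted p = 0.00041). Eda2r, a death receptor, was at least 12.4-fold higher in Nrf1 CKO. The differences of Phlda3, Atf3 and Gdf15 were called in every alternative run except slide as a block, whereas that of Foxm1 was lost without any 1 of 8 arrays. Of 21 ATF4-related genes 5 rose and 2 fell with Nrf1 loss, beside 7.99% and 10.9% of all genes. In the difference 4 were higher, beside 3.56% of all genes. Atf3 was among these 4, with effects of 3.43 and -0.16. Gdf15, a stress hormone, had effects of 2.04 and -1.37. Of 18 chaperones of the endoplasmic reticulum none was called in either effect or in the difference by limma, with medians of -0.04 and -0.04. At an unadjusted p under 0.05, Nrf1 loss raised 1 and lowered 3 of these, and none passed in the Keap1 effect or the difference.

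Of 21 matrix genes 15 rose with Nrf1 loss and none with lowered Keap1 (medians 1.19 and -0.08), and 11 were higher in the difference. That count was 4 with scan date as a block, in the fit of 12 arrays, or without Nrf1 Control 1, CKO 2, CKO 3, Keap1 Control 2 or KD 1. No matrix gene passed an unadjusted p under 0.05 in the Keap1 effect by limma. Mmp12, a macrophage elastase, was well above background on the 3 Nrf1 CKO arrays and on none of the other groups, so it entered the test through CKO alone. It was at least 11-fold higher there than in Nrf1 Control, and no Keap1 effect can be given. Lgals3, a lectin of macrophages, had effects of 2.34 and -0.23, and Mmp2, a gelatinase, 2.34 and 0.03. Markers of some cell types also moved with Nrf1 loss. Of 18 stellate cell markers 12 rose with Nrf1 loss (7 without CKO 3), and their summed level was 7.36 to 7.83 in Nrf1 Control, 7.84 to 8.09 in CKO, 7.49 to 7.87 in Keap1 Control and 7.57 to 7.90 in KD. Of 18 macrophage markers 5 rose and 1 fell with Nrf1 loss and 1 rose with lowered Keap1, and their summed level was 7.14 to 7.99, 7.93 to 8.92, 6.98 to 8.04 and 7.93 to 8.11 in the same order. Of 21 hepatocyte markers 11 fell with Nrf1 loss (3 after quantile normalization, 6 in the fit of 12 arrays and 3 without CKO 3), and their summed level was 12.26 to 12.53 in Nrf1 Control and 11.47 to 12.045 in CKO, with 12.17 to 12.66 and 12.12 to 12.61 in the Keap1 groups. The summed level of 7 erythroid markers was 8.19 to 8.34 in Nrf1 Control and 7.23 to 7.39 in CKO, with 1 called lower. It was 7.35 to 9.87 in Keap1 Control and 7.71 to 10.75 in KD. With Nrf1 loss 2 of 12 cholangiocyte, 1 of 12 lymphocyte, 2 of 5 adipocyte and 1 of 4 pancreas markers rose. None of 6 neutrophil markers was called. The part of these cell types in the results was not tested.

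Metabolic lists held more genes that fell than rose with Nrf1 loss, in numbers that moved with the scaling. Of 32 fatty acid oxidation genes 9 fell with Nrf1 loss, of 26 lipid synthesis genes 10 fell and 1 rose, and of 32 cytochrome P450 genes and their receptors 9 fell and 1 rose. After quantile normalization 2, 5 and 6 of them fell and 0, 2 and 1 rose, and the median Nrf1 effect of fatty acid oxidation was -0.03 in place of -0.42. Without CKO 2 fatty acid oxidation had 5 that fell, and lipid synthesis had 0 without CKO 3, 2 without Nrf1 Control 1 or CKO 2 and 6 without Nrf1 Control 2. The cytochrome P450 list had 3 that fell without CKO 3, 4 without Nrf1 Control 1 or CKO 2 and 16 without CKO 1. None of these was called with lowered Keap1 by limma, where at an unadjusted p under 0.05 there were 2, 2 and 1. In the difference 4, 0 and 4 of them were lower, and 11, 11 and 18 at an unadjusted p under 0.05, beside 14.7% of all genes. Nr1i3, a receptor for foreign compounds, had effects of -0.91 and 0.28. Its call in the difference was lost without Nrf1 Control 1, CKO 2 or CKO 3. For fatty acid oxidation the median difference of -0.43 was 0.03 after quantile normalization. Of 21 bile acid genes 7 fell with Nrf1 loss (2 without Nrf1 Control 1 or CKO 3) and 3 rose with lowered Keap1 (Acox2, Cyp7b1 and Hsd3b7, the first and last named after their values were seen; 1 after quantile normalization), of which Cyp7b1 was the 1 called in the difference.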

How the data were processed

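RNA from 18 livers was measured on single-colour Agilent mouse arrays, 500 ng labelled with Cy3 per the labels' protocols. Per the file headers, the deposited intensity called processed signal is background-subtracted, detrended and not normalized between arrays, from Agilent Feature Extraction. The deposited flags for background and outliers, and the control type, are other output of it. Control and outlier spots were left out, log2 signals of a probe were averaged, and log2 of the array's 75th percentile was subtracted. A probe was kept if the 3 arrays of any 1 group all read it well above background, and the brightest probe stood for a gene, which left 17721 genes (12874 with a symbol).

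Means of the 6 groups were fitted over 18 arrays with limma 3.58.1 under R 4.3.3 (12 residual degrees of freedom), and the test was the contrast of the effects, with Benjamini-Hochberg adjustment over all genes and calls under 0.05. A fold is "at least" where a group had no array above background: the brighter group's mean was set against the floor of the dimmer one. In simulated data on 17721 genes with independent noise, 100 genes were changed by 1 and 100 by 2 (log2), in Nrf1 CKO alone. Of these, 13% and 70% were called, with 5 false calls. The real data held more called genes and slide and date structure, so these rates need not hold there. The number of arrays limits the precision.

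The genes named were 16 fixed ones and others drawn from the sets that follow. These were the genes ranked highest by difference and by smaller effect in each pattern. Up to 6 members of each list called in the difference, and up to 4 called the same way in both effects, were also open to naming. So were members of the transferase, reductase, glutathione, thioredoxin, NADPH and proteasome lists. Members and lists were chosen with earlier results of these data known. Alternatives covered scaling, background, filters, probe choice, arrays in the fit, weights, blocks and each array left out. The percentile over probes and slide as a random block were chosen after seeing the data. Gene coordinates come only from GRCm38.p6 promoters, since the file headers name another build.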

Additional observations from a re-analysis of the deposited data

Results flagged for a closer look

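The results below come from the genes open to naming. They were singled out because their effects differed by the test of the difference and were called opposite ways in Nrf1 CKO and Keap1 KD. In all, 29 genes were called opposite ways, and other genes with this pattern are not listed. The differences of effects (Nrf1 minus Keap1, log2) with a rise in Nrf1 CKO and a fall in Keap1 KD were 6.996 for Akr1c18, 3.12 for H2-Q1, 2.61 for Lum, 2.49 for Cela1, 2.46 for Cd300lf, 2.26 for Jun and 1.39 for Emid1. With a fall in Nrf1 CKO and a rise in Keap1 KD they were -2.34 for Abcc3, -2.46 for Ugt2b1, -3.37 for Gucy2c, -3.51 for Lyve1, -4.15 for Cyp7b1, -4.72 for Serpinb1a and -5.60 for Tafa2. Gucy2c read -1.86, -2.27 and -2.0 in Nrf1 Control and -3.33, -3.24 and -3.62 in CKO, against -2.74, -2.72 and -2.03 in Keap1 Control and -0.93, -0.13 and -0.40 in KD.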

How the results depend on the processing

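The main counts were 1226 genes called in the difference, 3348 for Nrf1 loss, 979 for lowered Keap1, 79 called the same way in both and 29 called opposite ways. Quantile normalization gave 746 for the difference, 555 for Keap1 and 15 opposite. Array median scaling gave 2580 for the difference. Normexp gave 519 for Keap1 and 18 opposite. Without a filter on background the counts were 353, 2117, 615, 20 and 11, and with genes above background on all 12 arrays 474 for Keap1 and 16 opposite. A fit of 12 arrays gave 268 for the difference, 1836 for Nrf1, 48 the same way and 17 opposite. Array weights gave 2525, 8154 and 251 for the difference and each effect. Slide as a block gave 11, 65, 55, 2 and 1, and scan date as a block 329 for the difference, 255 for Keap1, 22 the same way and 8 opposite.

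The replicate number as a block gave 895, 2793, 636, 51 and 30. Numbers did not pair samples: the correlations of same-numbered samples were 0.127, 0.120 and -0.017 in the Nrf1 line and 0.100, -0.359 and 0.147 in the Keap1 line.

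With 1 array left out, the counts ranged from 263 to 2312 for the difference, 939 to 4160 for Nrf1, 350 to 1048 for Keap1, 17 to 167 the same way and 16 to 46 opposite ways. Without Nrf1 CKO 3, Nrf1 Control 1 or Nrf1 CKO 2, 70, 69 and 65 of the 117 named genes called in the difference lost the call. Under no alternative did 3 of the 117 lose it (Nfe2l1, H2-Q1 and Mmp12, the last well above background in Nrf1 CKO alone), and 31 lost it with slide as a block and nothing else. No result changed direction where it was called. Of the effects of single genes recomputed under an alternative, 3108 stayed on the same side of the threshold, 1113 lost the call and 1, Nfe2l2 in the difference under normexp, gained it. Within slides, the difference kept its sign for 117 of the 117 named genes called in the difference, and the Keap1 effect for 93. There the Nrf1 effect set Nrf1 Control 3 against the 3 CKO arrays, and the Keap1 effect set Keap1 Control 3 against KD 3. These arrays are among those that gave the calls by which the genes were chosen. Their signs were therefore nearly fixed in advance and are no check on slide. The cause was not tested in any of these cases.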
